A study of Mus musculus with 10 samples.

Results

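REST peaks that lay inside gene bodies and were listed for the 3xTg cortex alone were described across the genes that hold them. They were selected on the deposited peak lists: a 3xTg peak was taken where it overlapped no WT peak by even 1 base, where its summit lay more than 1 kb from every curated RefSeq transcription start site of mm10, and where the summit fell within the span of a curated RefSeq transcript. This rule gave 1162 of the 5077 3xTg peaks outside chromosome Y. A further 1003 gene-body peaks of the 3xTg list overlapped a WT peak and are called shared. The 3xTg-only peaks were 53.7% of the gene-body peaks, beside 51.0% of all 3xTg peaks, and since the rule used this overlap the shares are a description.

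The lists came from REST ChIP-seq of whole cortex, a tissue that holds neurons, glia and vascular cells together. The genotypes were WT littermate controls and 3xTg, all of them female and 11 months of age. The 3xTg line models Alzheimer's disease and has a hybrid background of C57BL/6J and 129Sv/Ev. It carries mutant human APP and tau transgenes, driven in neurons by a Thy1 cassette, and a PS1 knock-in mutation. Each genotype had 4 ChIP replicates, each a pool of 4 cortices, and 1 input library without immunoprecipitation, and the authors deposited 1 combined peak list per genotype, so no value of a peak has a replicate error.

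REST is a zinc-finger repressor that binds a long composite element, RE1, and recruits CoREST and Sin3 complexes with histone deacetylases. It is known for silencing neuronal genes outside the nervous system, with RE1 elements that often lie in first introns as well as at promoters, and for acting again in aging neurons. Introns also hold enhancers, stretches of open chromatin bound by factors such as AP-1 (Fos and Jun dimers) and basic helix-loop-helix proteins, which read E-box sequences.

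Most of the 3xTg-only gene-body peaks held no RE1 element. The 10 that came closest to the 20-base RE1 consensus, with ties ordered by fold enrichment, are shown as the closest forms of the known REST element. Other members held matches as close as the last of these. Each is read on the strand of the element with 10 bases on either side, from mm10. Capitals mark the bases that match the consensus, and lower case within the element marks a mismatch.
Prmt8, chr6:127767964-127768003, plus strand: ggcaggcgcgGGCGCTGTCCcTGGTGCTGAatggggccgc
Col5a3, chr9:20813179-20813218, plus strand: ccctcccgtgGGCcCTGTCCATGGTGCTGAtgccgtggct
Gm3764, chr3:88221016-88221055, minus strand: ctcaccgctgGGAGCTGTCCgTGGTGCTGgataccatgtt
Ano4, chr10:89224710-89224749, minus strand: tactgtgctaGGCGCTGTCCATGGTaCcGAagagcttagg
Tmem178b, chr6:39899411-39899450, plus strand: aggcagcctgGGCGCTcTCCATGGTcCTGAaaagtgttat
Unc79, chr12:102949747-102949786, plus strand: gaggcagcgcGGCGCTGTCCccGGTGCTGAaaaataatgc
Kirrel3, chr9:34913168-34913207, plus strand: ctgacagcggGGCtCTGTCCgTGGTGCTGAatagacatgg
Grid1, chr14:34867435-34867474, minus strand: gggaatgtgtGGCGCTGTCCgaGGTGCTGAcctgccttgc
Cacna1b, chr2:24762074-24762113, minus strand: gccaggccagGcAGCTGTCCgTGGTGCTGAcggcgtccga
Phactr3, chr2:178277381-178277420, minus strand: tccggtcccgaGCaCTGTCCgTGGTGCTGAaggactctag

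These elements lay in introns, other than that of Gm3764, which lay in an exon of a non-coding RNA. The site in Prmt8, an arginine methyltransferase of brain, had 1 mismatch and lay 47 bases from its summit in the first intron. That summit was 1124 bases from the nearest curated RefSeq start site and 489 bases from a GENCODE start site. Col5a3, a collagen chain, also had 1 mismatch, 70 bases from the summit in its first intron. Cacna1b, the pore subunit of N-type calcium channels, carried a site with 2 mismatches 3 bases from its summit. That summit was 1055 bases from the RefSeq start site and 950 bases from a GENCODE start site. Unc79, a subunit of the sodium leak channel complex, carried a site with 2 mismatches at 103 bases from the summit. That summit was 1011 bases from the RefSeq start site, just beyond the limit of the rule, and 316 bases from a GENCODE start site. Grid1, a delta glutamate receptor, and Kirrel3, an adhesion molecule of synapses, had sites with 2 mismatches in their second introns, 19 and 24 bases from the summits. Ano4, an anoctamin, and Tmem178b, a transmembrane protein, had sites with 2 mismatches in first introns, 10 and 2 bases from the summits. Phactr3, a regulator of protein phosphatase 1 and actin, had 3 mismatches in its intron 4 at 10 bases from the summit.

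An RE1 match with at most 5 mismatches on either strand was found in 39 of the 1162 3xTg-only gene-body peaks, 3.36% (95% Wilson interval 2.46 to 4.56). The shared gene-body peaks held one in 60 of 1003, 5.98% (4.68 to 7.62), and all 3xTg peaks in 6.09%. The share was lower in the 3xTg-only than in the shared gene-body peaks (odds ratio 0.546, two-sided Fisher's exact test, p = 0.00380). The shared peaks had higher fold enrichment, and with both classes limited to a fold enrichment of at most 15 the shares were 3.35% and 4.54% and did not pass the test (odds ratio 0.728, two-sided Fisher's exact test, p = 0.232). Against windows of the same width 10 kb downstream of the same peaks, where 22 of 1161 windows held a match (1.89%, 1.25 to 2.85), the share in the peaks was higher (odds ratio 1.80, two-sided Fisher's exact test, p = 0.0371), but at a limit of 6 mismatches it was not (11.4% and 10.8%, p = 0.692). Against the 676 3xTg-only intergenic peaks, which held a match in 15 (2.22%, 1.35 to 3.63), no difference passed the test (odds ratio 1.53, p = 0.197, two-sided Fisher's exact test).

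The closest matches set the peaks apart from the windows more than the loose ones. With at most 4 mismatches, 21 peaks (1.81%, 1.19 to 2.75) and 5 downstream windows (0.431%) held a site (odds ratio 4.26, two-sided Fisher's exact test, p = 0.00236), and the shared gene-body peaks held one in 47 (4.69%). A match with 3 or fewer mismatches was in 16 peaks and in 0 of the 1161 downstream windows, which allows a share of up to 0.330% there (upper bound of the Wilson interval). Of the 21 sites, 15 lay within 50 bases of the summit, and their median distance was 24 bases. Of the 47 sites of the shared class, 39 lay within 50 bases, with a median of 18 bases. Of the 18 peaks whose best match had exactly 5 mismatches, 0 had it within 50 bases, and their median distance was 249.5 bases. The peaks with at most 4 mismatches had a median fold enrichment of 9.49, near that of all 3xTg-only gene-body peaks, whereas the shared peaks with such a site had a median of 16.7. First introns of the longest host transcript held 12 of the 21, beside 17 of the 47 in the shared class. Of all intronic summits, first introns held 31.8% in the 3xTg-only and 33.0% in the shared class. The difference for RE1 sites was not tested.

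**Figure D1:**
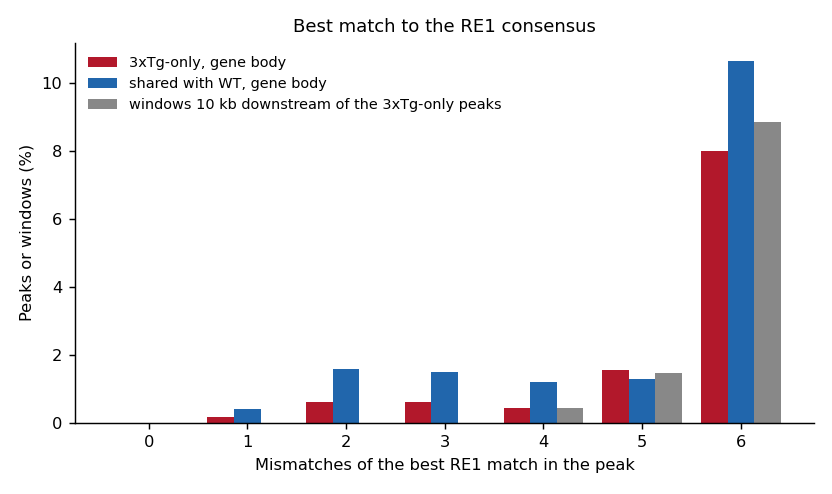
Share of peaks or windows (y axis, %) by the number of mismatches of their best RE1 match (x axis) in 3xTg-only gene-body peaks, shared gene-body peaks and windows 10 kb downstream of the 3xTg-only peaks. Bars at 1 to 3 mismatches are present in both peak classes and absent in the windows, while at 5 mismatches the 3xTg-only peaks and the windows are alike in height.

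Other genes with a close RE1 match included neuronal ones. Slc12a5, the potassium-chloride cotransporter KCC2 of mature neurons, had a match with 3 mismatches 8 bases from its summit in intron 7. Myt1, a neural zinc-finger factor, and Slc7a14, a transporter-like membrane protein of neurons, had matches with 3 mismatches in first introns, 66 and 35 bases from their summits, which lay 1544 and 1295 bases from the start sites. Camk2b, the beta subunit of calcium/calmodulin kinase II, had a match with 4 mismatches 42 bases from the summit in intron 2. Genes known from other tissues were also present, such as Cd300e, a myeloid receptor, with 3 mismatches in its 3′ UTR. These genes were chosen after their values were seen.

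Fold enrichment, the ChIP signal at the summit over the local background as MACS gives it, was low in these peaks. The lowest value was 8.51, the median 9.67 and the highest 19.2, and 669 of the 1162 lay at 10 or below. In the shared gene-body peaks the values were 8.52, 13.8 and 67.0, and 122 of 1003 lay at 10 or below. The 3xTg-only intergenic peaks were like those in gene bodies, with a median of 9.84. No test is given, since fold enrichment in 3xTg and the absence of a WT peak come from the same comparison. The strongest 3xTg-only gene-body peak ranked 555th of the 3xTg list by fold enrichment. The peaks were also narrower, with a median width of 739 bases beside 989 bases for the shared ones.

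**Figure D2:**
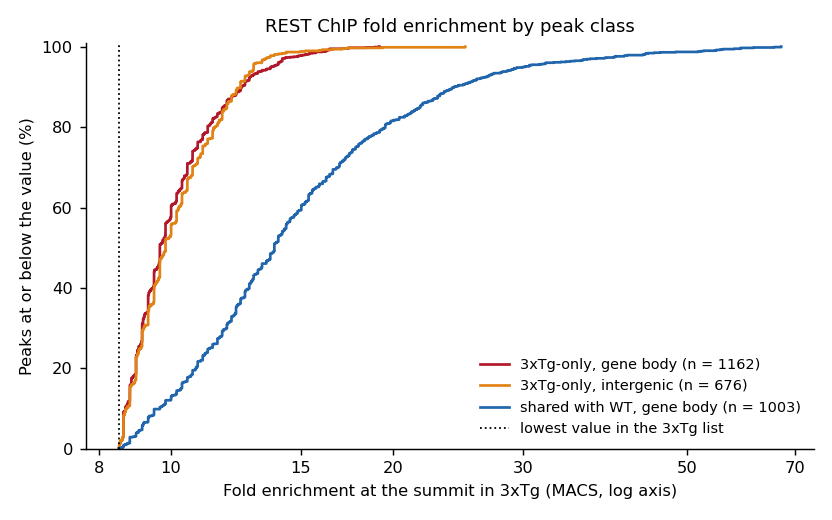
Cumulative share of peaks (y axis, %) by fold enrichment at the summit (x axis, log scale) for 3xTg-only gene-body peaks, 3xTg-only intergenic peaks and shared gene-body peaks, with the lowest value of the 3xTg list as a dotted line. The curves of both 3xTg-only classes rise steeply from that line and end at 19.2 and 25.0, and the curve of the shared class extends to 67.0.

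The floor of the lists bears on what absence from WT means. The lowest fold enrichment was 8.50 in the 3xTg list and 6.003 in the WT list, and the lowest −log10 q-values were 29.0 and 13.3. The numbers within the peak names ran to 76742 in 3xTg and 25141 in WT, while the lists hold 5086 and 3010 peaks. A 3xTg-only peak is therefore one with no WT peak at or above the floor of the WT list, and weaker WT signal at the same place was not measured here. The library summary of the study lists more mapped reads in total for 3xTg than for WT, and the part of depth in these lists was not tested. The nearest WT peak lay at a median distance of 148576 bases, and 7 of the 1162 had one within 1 kb and 57 within 5 kb. The nearest were in Btd (389 bases), Ttll5 (637 bases) and Sort1 (660 bases), and the shared gene-body peaks with the fewest bases in common with a WT peak were in Spop, Dmd and Hapln1. At the other limit of the rule, the 3xTg-only gene-body peaks nearest to a start site were in Srebf2 (1003 bases), Unc79 and Ablim1 (1011 bases each), and the promoter peaks just within it were in C030034I22Rik (978 bases), Anxa7 (968 bases) and Dpy19l3 (958 bases).

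The summits were intronic in 1143 of the 1162 peaks, 98.4% (97.5 to 98.95), when the longest curated transcript over the summit was taken as host. They fell in a 3′ UTR in 10, in a coding exon in 6, in an exon of a non-coding transcript in 3 and in a 5′ UTR in 0, which allows a share of up to 0.330% (upper bound of the Wilson interval). The first intron held 364 of the 1143 intronic summits, 31.8% (29.2 to 34.6), beside 322 of 975, 33.0% (30.1 to 36.0), in the shared class, a difference that did not pass the test (odds ratio 0.948, two-sided Fisher's exact test, p = 0.576). From the start to the end of the host, 4 successive parts of equal length held 322, 312, 298 and 230 summits, and in the shared class 272, 247, 246 and 238. The host lay on the plus strand for 583 peaks. Within 1 kb of a GENCODE start site lay 114 of the summits, 9.81%, so some of these peaks are at start sites that the curated RefSeq set does not hold.

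Summit windows of 200 bases were poor in CpG. Their median GC content was 44.0% and their median ratio of observed to expected CpG was 0.197, beside 44.5% and 0.208 in the shared class. A CpG-island-like window, with a GC content of at least 50% and a CpG ratio of at least 0.6, was found in 24 peaks, 2.07% (1.39 to 3.05), and in 33 of the shared ones, 3.29% (2.35 to 4.58), beside 21.5% of all 3xTg peaks. The difference between the gene-body classes did not pass the test (odds ratio 0.620, two-sided Fisher's exact test, p = 0.0811), but it did at a GC content of at least 55% and a ratio of at least 0.65 (0.775% and 2.39%, p = 0.00246). Bases that the reference marks as repeats made up more than 50% of the window in 47 peaks, 4.04%, and in 33 shared peaks, 3.29%.

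The sequence at the strongest summits shows what a peak without RE1 looks like. The 3 intronic 3xTg-only peaks with the highest fold enrichment are printed first, and then the 3 highest of the others that hold an AP-1 motif. Capitals mark AP-1 (TGANTCA), the E-box CAGCTG and the RE1 segments CAGCACC and GGACAGC, which are parts of the RE1 consensus, on either strand. The first 3 windows hold none of them. The coordinates are those of mm10.
Slc24a2, chr4:86992237-86992436, plus strand: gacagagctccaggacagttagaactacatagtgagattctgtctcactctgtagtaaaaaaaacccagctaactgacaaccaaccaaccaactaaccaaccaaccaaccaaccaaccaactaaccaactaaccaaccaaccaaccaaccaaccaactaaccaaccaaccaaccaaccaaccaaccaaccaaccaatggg
Usp10, chr8:119952874-119953073, plus strand: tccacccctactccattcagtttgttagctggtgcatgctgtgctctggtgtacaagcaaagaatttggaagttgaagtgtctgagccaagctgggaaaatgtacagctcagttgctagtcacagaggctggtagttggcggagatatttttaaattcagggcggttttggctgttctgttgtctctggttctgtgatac
Pebp4, chr14:69994910-69995109, plus strand: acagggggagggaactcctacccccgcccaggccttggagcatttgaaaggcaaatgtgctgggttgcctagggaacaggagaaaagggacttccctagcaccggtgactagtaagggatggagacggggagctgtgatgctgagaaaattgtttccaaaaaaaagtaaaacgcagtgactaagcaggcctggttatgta
Pde4dip, chr3:97834701-97834900, plus strand: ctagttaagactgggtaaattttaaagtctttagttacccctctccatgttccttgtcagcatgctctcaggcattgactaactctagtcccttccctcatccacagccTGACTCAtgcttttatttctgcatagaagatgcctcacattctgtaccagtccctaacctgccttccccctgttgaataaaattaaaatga
Slit3, chr11:35587267-35587466, plus strand: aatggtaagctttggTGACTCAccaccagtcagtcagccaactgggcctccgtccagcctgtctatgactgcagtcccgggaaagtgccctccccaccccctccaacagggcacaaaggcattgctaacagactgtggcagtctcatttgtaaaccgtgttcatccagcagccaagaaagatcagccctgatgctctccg
Igsf11, chr16:38931509-38931708, plus strand: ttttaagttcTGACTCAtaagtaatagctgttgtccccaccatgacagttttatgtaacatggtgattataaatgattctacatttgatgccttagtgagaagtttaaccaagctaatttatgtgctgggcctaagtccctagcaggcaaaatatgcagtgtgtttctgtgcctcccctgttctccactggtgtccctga

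Slc24a2, a potassium-dependent sodium/calcium exchanger of neurons, held the strongest peak, with a fold enrichment of 19.2, in its last intron, where all bases of the window are marked as repeat and a 4-base unit recurs through the second part of it. Usp10, a deubiquitinase, held a peak of 18.9 in intron 10, 301 bases from a GENCODE start. Pebp4, a phosphatidylethanolamine-binding protein, held one of 18.4 in intron 4. Others among the 10 strongest were in Zeb2 (17.4), Ccdc85a (17.4), Pde4dip (17.1), Adarb2 and Rock1 (16.4 each) and Slit3 (16.4). Zeb2 is a zinc-finger factor of neural crest and interneurons, Pde4dip a scaffold of phosphodiesterase at the Golgi and centrosome, Adarb2 a brain member of the RNA-editing family, Rock1 a kinase of the actin cytoskeleton and Slit3 an axon guidance ligand. The window in Adarb2 was 97.5% repeat, and that in Rock1 lay 78 bases from a GENCODE start. None of the 10 held an RE1 match with fewer than 7 mismatches.

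Short motifs were searched in the 200-base summit windows. TGANTCA, the AP-1 element, was present in 183 of the 1162 windows, 15.7% (13.8 to 17.96), in 16.6% (14.4 to 18.98) of the shared gene-body windows and in 6.55% (5.26 to 8.12) of the windows 10 kb downstream, beside 12.1% of all 3xTg summit windows. CAGCTG, an E-box read by neural basic helix-loop-helix factors, was present in 192, 16.5% (14.5 to 18.8), in 17.2% (15.0 to 19.7) of the shared windows and in 8.27% (6.82 to 9.99) of the downstream windows, beside 15.5% of all summit windows. For both motifs the 3xTg-only and shared intervals overlapped and the downstream interval lay below them. Either motif was present in 342 of the windows, 29.4%, and 794 of the peaks, 68.3%, held neither and no RE1 match. The median distance to the summit was 41.5 bases for AP-1 and 41.5 bases for CAGCTG, beside 46.5 and 34.0 bases in the shared windows. From the centre of the downstream windows it was 49.0 and 52.5 bases. Of the windows with AP-1, 31.7% had it within 25 bases of the summit, and 32.9% of the downstream ones had it as near the centre. For CAGCTG these shares were 33.3% and 26.0%. The downstream values for short motifs were added after the data were seen and carry no test.

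The segments of RE1 differed from these. CAGCACC, the left segment, was in 63 windows, 5.42% (4.26 to 6.88), in 9.17% (7.54 to 11.1) of the shared windows and in 4.57% (3.51 to 5.92) of the downstream windows, beside 7.82% of all summit windows, and it was less frequent in the 3xTg-only than in the shared class (odds ratio 0.568, two-sided Fisher's exact test, Benjamini-Hochberg adjusted p = 0.0144 over 18 motifs). GGACAGC, the right segment, was in 3.87%, 6.18% and 3.62% in the same order, beside 7.03% of all summit windows, and did not pass the test (two-sided Fisher's exact test, adjusted p = 0.0750). Both segments together were in 10 windows of the 3xTg-only class (0.861%, 0.468 to 1.58) and in 33 of the shared class (3.29%, 2.35 to 4.58). The left segment lay within 25 bases of the summit in 17 of 63 windows and, in the shared class, in 52 of 92. In the downstream windows it lay within 25 bases of the centre in 13 of 53.

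AGGTCA and CCAAT were more frequent in the 3xTg-only class. AGGTCA, a nuclear receptor element, was in 9.04% (7.52 to 10.8) against 5.68% (4.41 to 7.29) of the shared windows (odds ratio 1.65, adjusted p = 0.0283, two-sided Fisher's exact test), and was in 12.5% of the downstream windows and 7.43% of all summit windows. CCAAT was in 27.1% (24.6 to 29.7) against 21.8% (19.4 to 24.5) (odds ratio 1.33, adjusted p = 0.0305, two-sided Fisher's exact test), and was in 24.3% of the downstream windows and 27.99% of all summit windows. With both classes limited to a fold enrichment of at most 15, CCAAT was the 1 motif that passed (two-sided Fisher's exact test, adjusted p = 0.00764), and AGGTCA (adjusted p = 0.166) and CAGCACC did not. The remaining motifs were searched on both strands as well, and their shares of 3xTg-only windows and of all 3xTg summit windows were 1.64% and 3.15% for TGACGT (CRE), 4.22% and 2.92% for CATATG and 1.38% and 3.49% for CACGTG (E-boxes), 3.70% and 16.9% for GGGCGG (Sp1) and 1.03% and 3.11% for GTGGGCG (Egr), which overlaps the Sp1 letters. They were 0.602% and 5.16% for CCGGAAG (ETS), 13.7% and 9.55% for TATAAA, 28.6% and 36.6% for CCCTC (the core of CTCF), 3.27% and 1.99% for CTTTGAT (TCF/LEF), 8.61% and 8.55% for GTTGCC (RFX) and 0.172% and 0.0985% for the palindromic NFI element. The Sp1, ETS and Egr motifs stood lower here than in the whole list, which includes the promoter peaks. The other 15 motifs did not pass the test against the shared class, among them TGTTTAC, the FOXO element, present in 3.84% of all summit windows, at 4.91% against 3.59% (two-sided Fisher's exact test, adjusted p = 0.350).

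**Figure D3:**
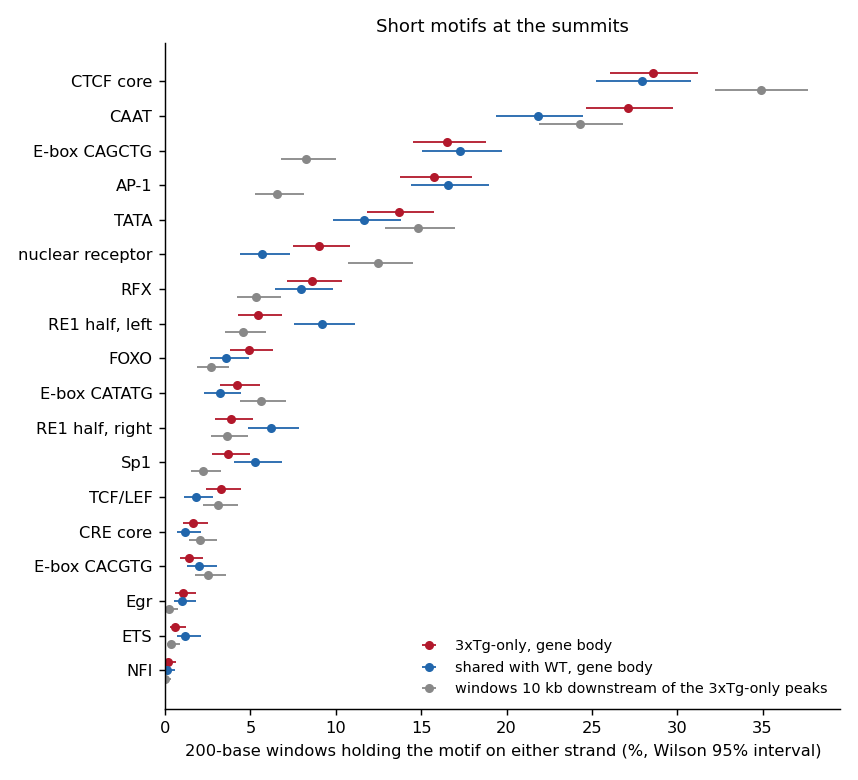
Share of 200-base windows that hold each of 18 short motifs on either strand (x axis, %; bars are 95% Wilson intervals) at the summits of 3xTg-only gene-body peaks, at the summits of shared gene-body peaks and in windows 10 kb downstream of the former. AP-1 and CAGCTG stand at 15.7% and 16.5% in the 3xTg-only peaks and at 6.55% and 8.27% in the windows, and the left segment of RE1 stands higher in the shared peaks than in the other groups.

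The motif shares did not order with fold enrichment within the class. With the 1162 peaks in 4 parts of 290 or 291 from the highest to the lowest fold enrichment, AP-1 was in 17.2%, 13.8%, 17.6% and 14.4% of the windows, CAGCTG in 18.9%, 14.1%, 17.9% and 15.1%, and an RE1 match in 3.44%, 2.41%, 4.48% and 3.09% of the peaks. Each of the 4 intervals overlapped the others for every one of these measures.

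The host genes were long. A total of 961 RefSeq genes held at least 1 of the peaks, of which 798 held 1, 126 held 2 and 37 held 3 or more. The median length of the host transcript was 144437 bases, beside 125398 bases for the shared class, and 739 of the 1162 peaks lay in a transcript over 100 kb. Among 21806 RefSeq genes over 2 kb, with a median length of 18620 bases, 4.41% held a peak of the class, and the share was 23.7% in the longest 10% of genes and 0.183% in the shortest 10%. Per Mb of gene the difference was smaller, with 1.21 in the longest 10% of genes and 1.25 in the next 10%. The value was 0.617 in the shortest 10% and 1.11 over all, and the lowest of the 10 length classes was 0.353, in the third shortest. Full gene length was used, although the rule bars summits within 1 kb of a start site, which takes more of a short gene. In the order longest, next, shortest and all, shared gene-body peaks stood at 0.969, 1.13, 0.925 and 0.966 per Mb. Of the 961 host genes, 578 (60.1%) held 1 peak of the class and no other 3xTg peak in the body or at a promoter, 656 (68.3%) held peaks of the class alone, whether 1 or several, and 228 (23.7%) also held a shared gene-body peak. Counted by peak, 387 of the 1162 (33.3%, 30.7 to 36.1) lay in a host transcript that, with 1 kb on either side, also held a peak shared with WT. The same was true of 64 of the 750 3xTg-only promoter peaks (8.53%, 6.74 to 10.8), whose genes had a median length of 21073 bases, and since the WT list is part of the rule this is a description.

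The 11 genes with 4 or more 3xTg-only peaks included synaptic scaffolds and neural transcription factors. Dlg2, the postsynaptic scaffold PSD-93, held 6 over its 1358 kb, with fold enrichments of 9.49, 12.1, 8.98, 14.2, 9.15 and 12.1 from start to end, 4 of them in its first intron. The summits of the peaks of 9.49 and 9.15 lay 293 and 70 bases from a GENCODE start. The 1 shared gene-body peak of Dlg2, with a fold enrichment of 17.1, was higher than all 6. Slc24a2 held 5, with values from 9.32 to 19.2, and 2 shared peaks, of which the one 8784 bases from the start site had an RE1 match with 3 mismatches and a fold enrichment of 20.4. Sipa1l1, a Rap GTPase-activating protein of dendritic spines, held 5 with values from 8.75 to 11.0, and its shared peak reached 19.2. Sik3, a salt-inducible kinase, held 5 with values from 8.63 to 10.7, 4 of them in intron 1, and its 2 shared peaks reached 18.7 and 16.8. In each of these 4 genes a shared peak had the highest fold enrichment, and since the rule used overlap with WT this is a description.

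Other genes had several peaks of the class and none that was shared. Zbtb20, a zinc-finger repressor of hippocampal and glial development, held 5 with values from 9.15 to 10.7, all in its introns 4 and 5. Phactr1, a regulator of actin and protein phosphatase 1, held 4 with values from 9.32 to 14.0. App, the amyloid precursor protein gene, held 4, in introns 1, 5, 8 and 13 of its longest transcript, with values of 9.17, 9.01, 10.4 and 9.15. App had no shared gene-body peak and no peak at its promoter in the 3xTg list, and the WT peak nearest to its 3xTg-only peaks was 657081 to 797971 bases away. None of its 4 peaks held an RE1 match with fewer than 7 mismatches. Tcf4, a basic helix-loop-helix factor of neurons, was at the other end, with 4 peaks of the class (8.63 to 16.2) and 6 shared ones (8.80 to 23.1). The summit of its peak of 16.2 lay 58 bases from a GENCODE start. Ptprm, a receptor tyrosine phosphatase of cell adhesion, Dlgap1, a scaffold of the postsynaptic density, and Lsamp, a limbic adhesion molecule, held 4 each, beside 1, 2 and 4 shared ones. In Ptprm a 3xTg-only peak was the highest (13.4, beside 10.9 for the shared one), and in Dlgap1 and Lsamp a shared peak was. Adjacent 3xTg-only peaks of the same gene were 1335 to 1031917 bases apart, with a median of 55321 bases over 217 pairs.

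**Figure D4:**
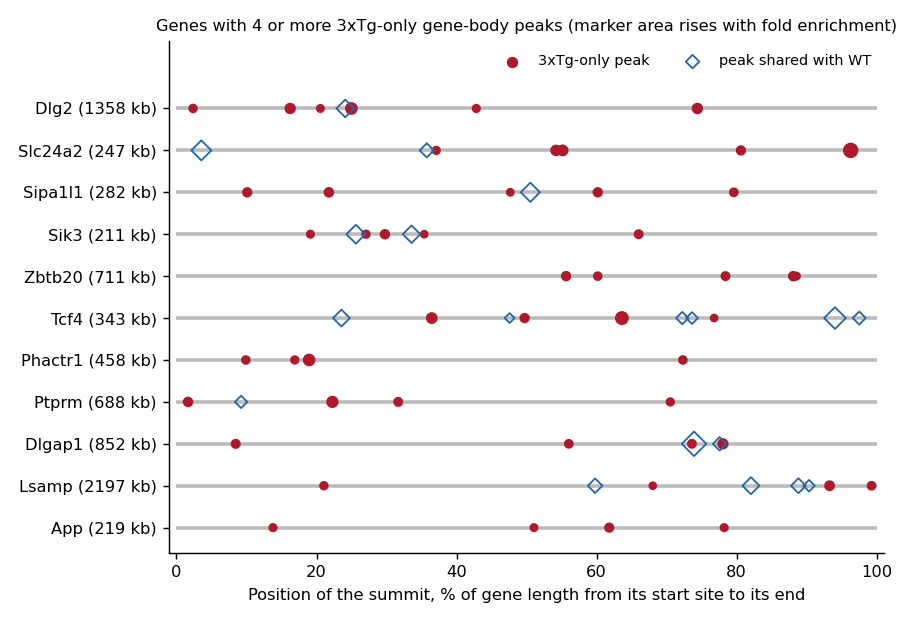
Summits of 3xTg-only peaks (filled circles) and of shared gene-body peaks (open diamonds) along the 11 genes with 4 or more 3xTg-only peaks, as a percentage of gene length from the start site (x axis), with marker area rising with fold enrichment and gene length in kb beside each name. Zbtb20, Phactr1 and App carry no diamond, and Tcf4 carries 6.

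Groups of genes were read beside the 4.41% of all genes over 2 kb that held a peak of the class, and with their lengths. Taken over the 20 lists, 95 of 676 genes held one, in all 141 of the 1162 peaks, so most of the class lay outside the lists. No set test was made. Neural RNA-binding and splicing regulators had the highest share, 11 of 31 (35.5%), at 2.89 peaks per Mb and with a median length of 112891 bases. They included Cpeb4 and its relative Cpeb3, which control translation from polyadenylation elements (2 peaks, up to 11.9, and 1 peak), the neuronal splicing factors Rbfox3 (2 peaks, up to 11.8) and Rbfox1 (3 peaks, up to 9.49), Msi2, a stem-cell translational repressor (1 peak, 11.5), and Mbnl1, a splicing factor (1 peak, 11.4). Shared peaks lay in 12 of the 31 (38.7%), and 7 genes held both kinds.

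Neural lineage transcription factors followed with 12 of 41 (29.3%) at 2.64 peaks per Mb, beside 9 with a shared peak. Zeb2 held 2 (17.4 and 10.2), Tcf4 4, Sox5, a factor of corticofugal neurons, 2 (15.4 and 11.8), and Rora, an orphan nuclear receptor, 2 (14.0 and 8.70). Myt1l, which represses fates other than the neuronal one, and Npas3, a factor of interneurons and glia, held 3 each, as did Auts2, a nuclear regulator of neurodevelopment.

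Glutamate receptors and postsynaptic scaffolds had 11 of 47 genes (23.4%) at 1.52 peaks per Mb, beside 5 with a shared peak (10.6%), and all 5 of those also held a peak of the class. Among them were Dlg2 (6), Dlgap1 (4) and Grin2a, an NMDA receptor subunit (2, up to 10.9). Cacng2, which encodes stargazin, an auxiliary subunit of AMPA receptors, held 2 in its first intron (10.4 and 9.70). They lay 73995 and 33466 bases from its start, and Cacng2 also had 1 shared gene-body peak and a shared promoter peak. The neuronal cytoskeleton and axonal transport list had 9 of 40 (22.5%) at 2.66 per Mb, among them Dync1i1, a dynein intermediate chain (2, up to 13.8), Macf1, a linker of actin and microtubules (2, up to 13.1), Map4, a microtubule-associated protein (13.0), and Sptan1, alpha spectrin (12.8). Shared peaks were in as many genes of that list.

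Ion channels and transmitter release were at lower shares. Of 53 potassium channel genes 7 (13.2%) held a peak of the class at 0.879 per Mb, beside 13 (24.5%) with a shared one, and the values of Kcnd2 (2, up to 10.5), Kcnj10 (10.01), Kcnip4 (9.83) and Kcnj6 (9.70) were all under 11. Of 32 sodium and calcium channel genes 5 held one (15.6%), among them Scn8a, the sodium channel of axon initial segments, with 3 (14.8, 12.1 and 9.01) and no shared peak, Cacnb4 (11.2), Cacna2d1 (9.84) and Cacna1b (8.70). Of 48 genes of synaptic vesicle release and recycling 8 held one (16.7%), with Nrxn3 (15.7), Dnm3 (12.8), Rims4 (12.4) and Syt1 (11.6) the highest. Inhibitory transmission had 5 of 27 (18.5%), Gabrg3 (13.5), Gabrb1 (10.01), Gphn (9.49) and Gabbr1 (9.01) among them. Axon guidance genes, the longest after the lineage factors with a median of 146404 bases, had 5 of 53 (9.43%) at 0.569 per Mb, among them Slit3 (16.4), Ntng1 (12.6), Robo2 (12.6) and Neo1 (10.01).

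Lists tied to the questions of the study were read in the same way. Tau kinases and phosphatases had 6 of 39 (15.4%), in Dyrk1a (13.6), Mapk10 (11.7), Ppp2r2b (11.4), Mark1 (9.95), Camk2b (2 peaks, up to 9.37) and Ppp3cb (8.80), beside 7 with a shared peak. Apoptosis machinery had 3 of 42 (7.14%), the anti-apoptotic Bcl2l1 (11.8), the death-associated kinase Dapk1 (10.4) and the apoptosome gene Apaf1 (9.34). The Wnt and beta-catenin pathway had 3 of 41, Znrf3 (10.4), Rnf43 (9.01) and Tcf7l2 (8.81), of which the first and second are ligases that remove Wnt receptors. Autophagy had 3 of 38, Tbc1d5 (10.2), Atg10 (9.67) and Vps41 (9.15), and the unfolded protein response had 0 of 28. REST and its corepressor complexes had 1 of 31, beside 4 with a shared peak. Shared peaks lay in 3 apoptosis, 3 Wnt and beta-catenin, 2 autophagy and 2 unfolded protein response genes. None of these shares is set against a test, and the unfolded protein response and apoptosis genes are short, with medians of 17785 and 19274 bases.

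Among the genes that the study named, none of Cdk5, Gsk3b, Daxx, Foxo3, Gadd45a, Casp9 and Tle3 held a gene-body peak of the class, and neither did Rest, Mapt or Thy1. Gsk3b, Gadd45a, Mapt and Rest had a 3xTg-only peak at a promoter instead, and Mapt also had 1 shared gene-body peak. Cdk5 had a promoter peak shared with WT. Daxx, Foxo3, Casp9, Tle3 and Thy1 had neither a gene-body nor a promoter peak under this assignment of summits. The study reached its targets by a test of differential binding, with a wider window around start sites than the 1 kb used here. By ChIP-qPCR it reported higher 3xTg binding at Cdk5, Gsk3b and Daxx, and binding at Tle3 and Cacng2. A peak called shared here can still differ in strength between the genotypes, which was not measured.

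Markers of the cell types of cortex were read beside the same 4.41% of all genes over 2 kb, on short lists and without a test. Astrocyte markers had 4 of 20 genes with a peak of the class (20%) at 2.98 per Mb, in the glutamate transporters Slc1a3 (11.6) and Slc1a2 (10.8), the bicarbonate transporter Slc4a4 (3 peaks, up to 11.6) and the glypican Gpc5 (2 peaks, up to 9.32). Neuron markers had 3 of 20 (15.0%) at 2.52 per Mb, Rbfox3, Syt1 (11.6) and Stmn2 (8.63) being the genes. Most of the astrocyte-list peaks lay in Slc4a4 and Gpc5, which are long, at 352397 and 1432978 bases. Oligodendrocyte lineage markers had 1 of 20, Ugt8a (13.6), and endothelial and mural markers 1 of 20, Abcb1a (2 peaks, up to 12.8), while microglia and macrophage markers had 0 of 19. With lists this short, these shares stand near that of all genes. Shared gene-body peaks were spread in much the same way. They lay in 3 astrocyte, 2 neuron, 1 oligodendrocyte lineage, 0 endothelial and mural, and 0 microglia and macrophage markers. In whole cortex the cells in which a peak arose cannot be told apart.

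**Figure D5:**
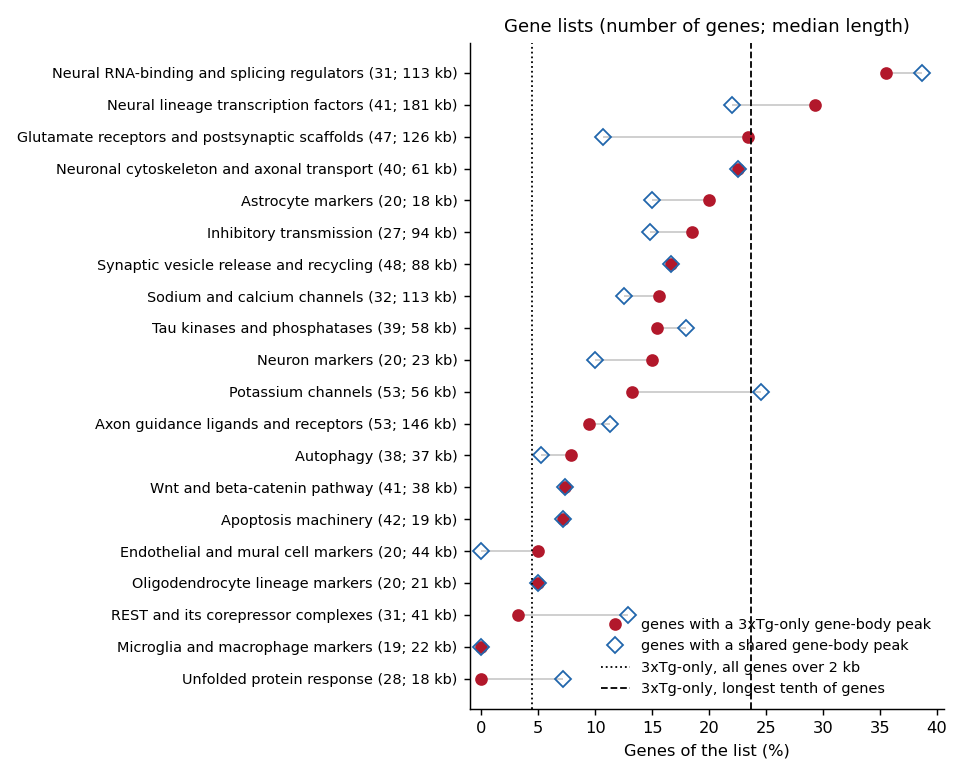
Share of the genes of each list (x axis, %) that held a 3xTg-only gene-body peak (filled circles) or a shared gene-body peak (open diamonds), with the number of genes and their median length beside each name and lines at the 3xTg-only shares of all genes over 2 kb (4.41%) and of the longest 10% (23.7%). RNA-binding regulators and lineage factors lie beyond the second line, and the unfolded protein response and microglial lists lie at 0 for the filled circles.

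Chromosome X held 7 of the 1162 peaks (0.602%), at 0.158 per Mb of transcribed sequence, while the 19 autosomes ranged from 0.867 to 1.44 per Mb with a median of 1.18. The X carries 4.27% of the transcribed bases of the chromosomes examined. Shared gene-body peaks were as few on X, 6 of 1003 (0.598%).

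The widest of the peaks were in the non-coding gene 5031425E22Rik (3636 bases, fold enrichment 12.9), in Hsph1, a heat shock protein (3371 bases, 9.67), and in the non-coding gene Dleu2 (3043 bases, 10.5). All the summits lay in first introns, and those in Hsph1 and Dleu2 were 754 and 467 bases from a GENCODE start. The peaks in Hsph1 and Dleu2 ran past the RefSeq start of the host transcript.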

How the data were processed

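REST ChIP-seq libraries of WT and 3xTg cortex were, per the labels and the study's methods, sequenced as single-end reads, aligned to mm10 (STAR 2.7.0a is named, and BWA for the earlier replicates) and called with MACS, with a blacklist filter. The deposited lists combine the 4 replicates of a genotype and give each peak a score, a fold enrichment (a ratio) over local background, −log10 p- and q-values by the authors, and a summit offset. They hold no read counts, so the depth behind a peak is unknown from these files.

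The score was used only to rank peaks in 1 alternative, the q-value only as a filter, and the p-value not at all. Peaks on chromosome Y were left out. Start sites, spans, introns and sequence came from RefSeq on the reference of the same build. The host was the longest curated transcript over the summit, and a gene also counted as host wherever its span held the summit. RE1 was the known 20-base REST consensus, with at most 5 mismatches, either strand, whole peak. The other motifs were searched on both strands of 200 bases at the summit. Shares were compared by two-sided Fisher's exact tests at a threshold of 0.05, with 95% Wilson intervals that cover counting error over peaks only, and 18 motifs were adjusted by Benjamini-Hochberg. Neighbouring peaks are not independent, and nothing here measures replicate spread.

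The members, gene lists and named genes were chosen with earlier results of these data known. Named were the 10 members with the highest fold enrichment, the 10 genes with most members, up to 10 with the fewest RE1 mismatches, up to 4 genes per list by fold enrichment, the 3 widest, those nearest to each limit of the rule, and the genes of the study at its ChIP-seq results with Mapt, App, Thy1 and Rest. Further genes of a list were named after their values were seen. Programs were tested on simulated data. Python 3.11.15, numpy 2.4.6, pandas 2.3.3, scipy 1.17.1, pysam 0.24.0, matplotlib 3.10.9 and bedtools 2.31.1 were used. Some genes that hold a peak are not reported here.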

Additional observations from a re-analysis of the deposited data

Results flagged for a closer look

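The 3xTg list held 9 peaks on chromosome Y, which none of the comparisons used, beside 4 in the WT list, although all mice were female. Their fold enrichments were 8.63 to 18.99 in 3xTg and 6.06 to 13.6 in WT, and 4 of the 9 overlapped a WT peak. The difference was not tested.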

How the results depend on the processing

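The number of 3xTg-only gene-body peaks stayed within 1.5 times of 1162 under 7 of 9 alternatives, and was 493 for peaks with a fold enrichment over 10 and 395 when the 3xTg list was cut by score to the length of the WT list. All deposited 3xTg peaks passed q under 1e-05. The RE1 odds ratio against shared gene-body peaks stayed under 1 in all 13 alternatives, and 1 of them, both classes limited to a fold enrichment of at most 15, left it past no threshold (0.728, Fisher's exact test, p = 0.232). Against 3xTg-only intergenic peaks the odds ratio turned to 0.827 in that shorter list and to 0.920 with 200 bases at the summit, none past the threshold under any of 12 alternatives. Against the downstream windows it held with at most 4 mismatches, with 200 bases and with upstream windows (2.49), and was 1.06 with at most 6. The CpG odds ratio passed the threshold at 0.501 where a WT peak within 1 kb also counted as shared, at 0.525 for protein-coding transcripts alone and at 0.318 for the stricter GC and CpG limits. The first-intron odds ratio changed side without passing the threshold, at 1.01 for a fold enrichment over 10, 1.22 where sharing needed 50% of both peaks, 1.03 beyond 3 kb of a start site and 1.00 with predicted transcripts. Of 18 motifs 3 passed, and 1 did with both classes limited to a fold enrichment of at most 15. That motif setting and GENCODE start sites, which left 1052 peaks, were chosen after the data were seen. No cause of these changes was tested. No paired analysis was possible because each deposited list combines the 4 replicates of a genotype, and for the same reason no replicate could be left out.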
